A study of Rattus norvegicus with 6 samples.

Results

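Acyl-CoA thioesterases cleave fatty acyl-CoA and other CoA esters into the free acid and CoA. The genes described here are 8 members of this family: Acot1, Acot2, Acot3, Acot4, Acot7, Acot8, Acot12 and Acot13. Their probe sets were chosen by gene symbol from the platform annotation, each with exactly 1 symbol, which gave 11 probe sets for these 8 genes, of 14217 genes that had such a probe set. Acot2 had 3 probe sets, Acot7 had 2 and the other genes 1 each. The family was taken up because the Acot3 difference between the groups was already known to be among the higher ones in these data. Differences between the groups are therefore given for its members as descriptions.

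Signals came from 1-colour microarrays of 6 liver samples of rats (Rattus norvegicus) made hypercholesterolemic by a fat-rich diet. The probiotic group of 3 samples came from rats given Lactobacillus casei Zhang, a lactic acid bacterium, in 1 ml of saline by gavage every day for 30 d, after 30 d of the diet alone. The high-fat group of 3 samples came from rats that had the same diet throughout and the same volume of plain saline. The fat-rich diet was thus common to both groups, and no group on a normal diet is among them. The labels give no strain, sex or age. The samples are not stated to come from separate rats, and measures of spread are those between these samples.

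Thioesterases and acyl-CoA synthetases work in opposite directions and together set how much fatty acid is held as acyl-CoA in each compartment of a hepatocyte. Acot1 to Acot6 encode related enzymes of the alpha/beta hydrolase fold that differ in where they are kept: Acot1 in the cytosol, Acot2 in mitochondria and, in the mouse, Acot3 and Acot4 in peroxisomes. Acot7, Acot8, Acot12 and Acot13 belong to a separate group of enzymes with the hotdog fold. In rat and mouse liver Acot1 and its relatives are known for their induction by fasting and by ligands of PPARalpha, the nuclear receptor that switches on fatty acid oxidation.

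In the RefSeq table of rat assembly GRCr8, Acot2, Acot1, Acot4, Acot3, Acot5 and Acot6 lie in this order on chromosome 6. Acot7 is on chromosome 5, Acot8 on chromosome 3, Acot12 on chromosome 2 and Acot13 on chromosome 17. Acot5 and Acot6 had 0 probe sets of their own symbol. Because the members of the chromosome 6 cluster are close relatives, the assignment of signal to a single one of them is uncertain. The annotation itself gives a further probe set to both Acot1 and Acot2, and that probe set was left out of the 11.

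Promoters of the 3 peroxisomal members and of Acot1, the member with the widest spread between samples, are shown so that the genes can be compared at the start site. Each run covers 250 bases before and 50 bases after the RefSeq start on assembly GRCr8, 5′ to 3′ along the gene. Capitals mark AGGTCA, the element read by many nuclear receptors, and GGTCANAGGTC, the inner 11 bases of a pair of these elements set 1 base apart, which is the arrangement that PPARalpha binds with its partner Rxra. Both strands were searched, and the shorter motif overlaps the longer. These motifs were chosen after the sequences had been seen.
Acot3, chr6:109413447-109413746, plus strand: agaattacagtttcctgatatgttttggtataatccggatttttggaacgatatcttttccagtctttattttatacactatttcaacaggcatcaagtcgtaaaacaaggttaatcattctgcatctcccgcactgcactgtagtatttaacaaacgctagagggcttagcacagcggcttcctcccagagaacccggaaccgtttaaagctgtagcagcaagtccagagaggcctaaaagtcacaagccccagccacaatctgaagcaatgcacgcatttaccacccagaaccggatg
Acot4, chr6:109399604-109399903, plus strand: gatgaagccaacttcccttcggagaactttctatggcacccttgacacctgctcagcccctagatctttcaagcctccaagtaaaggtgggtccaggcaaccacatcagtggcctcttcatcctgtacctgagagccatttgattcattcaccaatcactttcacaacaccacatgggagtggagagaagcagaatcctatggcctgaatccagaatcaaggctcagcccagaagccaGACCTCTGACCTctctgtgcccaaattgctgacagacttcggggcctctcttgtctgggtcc
Acot8, chr3:173962139-173962438, minus strand: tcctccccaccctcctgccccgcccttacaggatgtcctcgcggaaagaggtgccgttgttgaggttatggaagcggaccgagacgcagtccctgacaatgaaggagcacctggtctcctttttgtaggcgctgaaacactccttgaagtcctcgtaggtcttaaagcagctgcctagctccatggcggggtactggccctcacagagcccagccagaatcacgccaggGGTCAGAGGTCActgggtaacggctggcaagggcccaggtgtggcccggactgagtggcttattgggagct
Acot1, chr6:109367024-109367323, plus strand: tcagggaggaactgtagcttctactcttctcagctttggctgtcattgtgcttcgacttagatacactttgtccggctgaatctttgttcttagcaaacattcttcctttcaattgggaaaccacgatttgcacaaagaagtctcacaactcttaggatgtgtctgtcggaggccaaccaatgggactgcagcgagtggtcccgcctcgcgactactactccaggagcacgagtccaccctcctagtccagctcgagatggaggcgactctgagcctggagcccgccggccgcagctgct

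The longer motif was present in the promoters of Acot4, from base -12 with its letters on the opposite strand, and Acot8, from base -21 on the gene's own strand. It was in 2 of the 9 promoters listed for the members, against 62 of all 33469 promoters of this length (0.185%). The promoters of Acot4 and Acot8 each held 1 match to AGGTCA, so the full pair of these elements was in neither. Nothing is read from this share, since the motifs were chosen with the sequences known. AGGTCA alone was in 3 of the 9, those of Acot4, Acot8 and Acot12, against 16.2% of all promoters. Neither motif was found in these windows of Acot3, Acot1, Acot2, Acot7 or Acot13. A match is a match of letters only.

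All array values below are log2(intensity + 16) after quantile normalization, on which 1 unit is a 2-fold difference in signal, and every difference is probiotic minus high-fat. Probiotic sample 2 and high-fat sample 2 lay farthest apart on the first principal component (-51.59 and 75.55, with the other 4 samples between -26.12 and 3.37). Without both of them the difference was 1.14 for Acot3 and 1.34 for Acot1. The 11 probe sets all passed the filter on dim signal, a mean over the 6 arrays of at least 6.30. The fit was limma over 18625 probe sets. It called 0 of the 11 thioesterase probe sets at an adjusted p under 0.05, against 0.0215% of all probe sets tested. At an unadjusted p under 0.05 it had 1 of 11, Acot3, against 6.85% of all. Split by direction, that is 1 of 11 higher in the probiotic group against 2.99% of all, and 0 of 11 lower against 3.86%. Without probiotic sample 1 the count was 3 of 11 (Acot3, Acot12 and the dimmest Acot2 probe set), against 1772 of all 18625. Without high-fat sample 2 it was 3 of 11 (Acot3, Acot1 and the brightest Acot2 probe set), against 795 of all 18625. Without probiotic sample 3 it was 2 of 11, against 892 of all 18625. Nothing is read from these counts, since the Acot3 difference was known when the family was chosen. Of the 11 probe sets, 9 had a higher mean in the probiotic group, against 50.5% of all probe sets tested. The median difference of the 8 genes, each by its brightest probe set, was 0.34, and that of all probe sets tested was 0.0042.

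**Figure D1:**
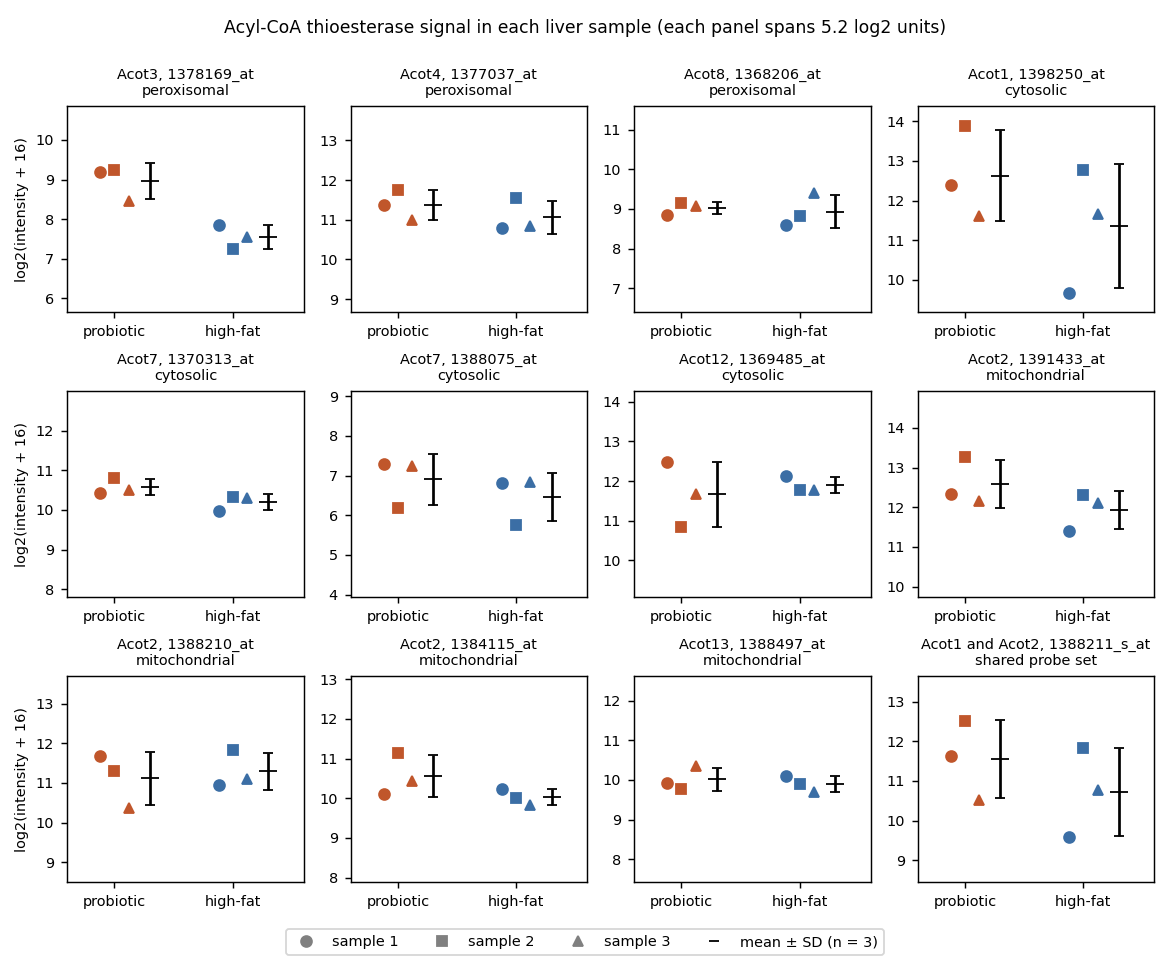
Signal of the 11 thioesterase probe sets and of the probe set shared by Acot1 and Acot2, as log2(intensity + 16), in 3 probiotic samples (left, orange) and 3 high-fat samples (right, blue). Points are samples and bars are mean ± SD (n = 3), and every panel spans the same number of log2 units: Acot3 is separated between the groups, and Acot1 is spread widely within both.

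Acot3 encodes an enzyme that, in the mouse, cleaves long-chain acyl-CoA in peroxisomes. Its probe set had signals of 9.19, 9.25 and 8.45 in probiotic samples 1, 2 and 3, against 7.86, 7.25 and 7.56 in high-fat samples 1, 2 and 3. All 3 probiotic samples were above all 3 high-fat samples. On the scale of the deposited intensities the values were 569, 584 and 325 in the probiotic samples and 226, 168 and 151 in the high-fat samples. Group means were 8.96 ± 0.44 for probiotic against 7.56 ± 0.31 for high-fat (SD, n = 3), and the difference was 1.40 (SE 0.30), or 2.65-fold. Without each sample in turn the difference lay between 1.26 (without probiotic sample 2) and 1.65 (without probiotic sample 3).

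Acot4, the neighbour of Acot3 on the chromosome, encodes a peroxisomal enzyme that prefers succinyl-CoA in the mouse. Its probe set had signals of 11.38, 11.74 and 11.00 in the probiotic samples and 10.79, 11.54 and 10.84 in the high-fat samples. The groups overlapped, since high-fat sample 2 was above probiotic samples 1 and 3. Group means were 11.37 ± 0.37 for probiotic against 11.06 ± 0.42 for high-fat (SD, n = 3), and the difference was 0.31 (SE 0.26). It was 0.13 with probiotic sample 2 left out and 0.56 with high-fat sample 2 left out.

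Acot8 encodes the broad-range peroxisomal thioesterase that also accepts bile acid CoA esters. Its probe set had signals of 8.85, 9.14 and 9.07 in the probiotic samples and 8.59, 8.81 and 9.39 in the high-fat samples. The highest and the lowest value were both in the high-fat group. Group means were 9.02 ± 0.15 for probiotic against 8.93 ± 0.41 for high-fat (SD, n = 3). The difference of 0.093 (SE 0.26) was smaller than the spread between samples, and it was -0.076 without high-fat sample 1.

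The peroxisomal enzymes thus had a median difference of 0.31, which is that of Acot4, and a range of 0.093 to 1.40. Averaged over Acot3, Acot4 and Acot8, and set against the high-fat mean, probiotic samples 1, 2 and 3 lay at 0.62, 0.86 and 0.33, and high-fat samples 1, 2 and 3 at -0.10, 0.019 and 0.083. The separation of these averages came mostly from Acot3. Before averaging, Acot3 lay at 1.63, 1.69 and 0.89 from its own high-fat mean in probiotic samples 1, 2 and 3. Acot4 lay at 0.32, 0.68 and -0.055 and Acot8 at -0.080, 0.22 and 0.15.

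**Figure D2:**
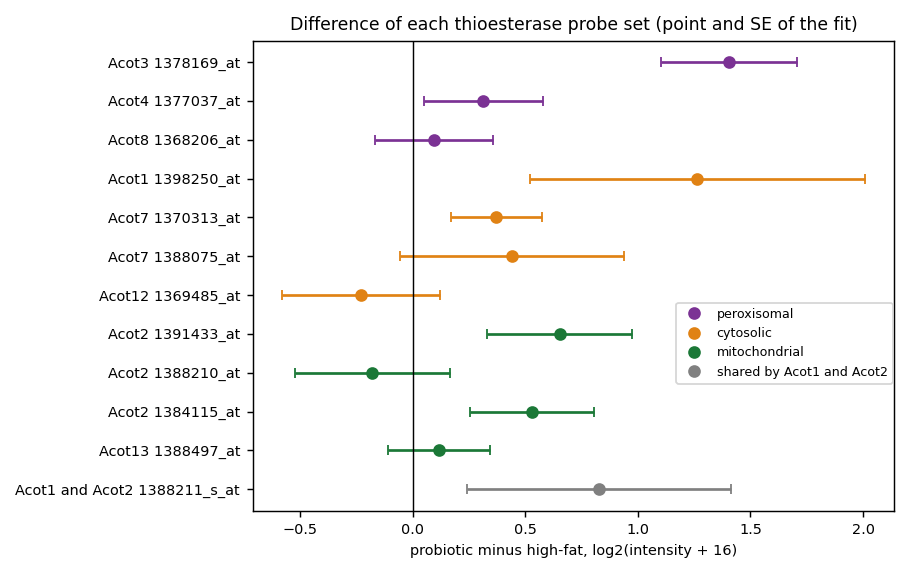
Difference of each probe set, probiotic minus high-fat, on the log2(intensity + 16) scale, with the SE of the limma fit, coloured by the compartment of the enzyme. Acot3 and Acot1 have the largest differences, at 1.40 and 1.26, and the SE of Acot1, 0.75, is over that of Acot3, 0.30.

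Acot1 encodes the cytosolic long-chain acyl-CoA thioesterase. Its probe set had signals of 12.40, 13.88 and 11.61 in the probiotic samples and 9.68, 12.76 and 11.65 in the high-fat samples. The groups overlapped widely: high-fat sample 2 was above probiotic samples 1 and 3, and high-fat sample 1 stood far below the rest. The deposited intensities were 5395, 14062 and 3157 in the probiotic samples and 802, 6729 and 3314 in the high-fat samples. Group means were 12.63 ± 1.15 for probiotic against 11.36 ± 1.56 for high-fat (SD, n = 3), and the difference was 1.26 (SE 0.75). High-fat sample 1 decided its size, with 0.42 without that sample. The difference was 0.64 without probiotic sample 2 and 1.95 when high-fat sample 2 was left out.

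The probe set shared by Acot1 and Acot2 followed Acot1. It had signals of 11.64, 12.50 and 10.52 in the probiotic samples and 9.59, 11.82 and 10.76 in the high-fat samples. The order of the 6 samples, with high-fat sample 1 lowest and probiotic sample 2 highest, was that of the probe set for Acot1 alone. Its difference was 0.83 (SE 0.59).

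Acot7 encodes a cytosolic long-chain acyl-CoA thioesterase that is best known from brain. Its brighter probe set had signals of 10.43, 10.81 and 10.49 in the probiotic samples and 9.98, 10.33 and 10.31 in the high-fat samples. All 3 probiotic samples were above all 3 high-fat samples, by a small margin. Group means were 10.58 ± 0.21 for probiotic against 10.20 ± 0.20 for high-fat (SD, n = 3), and the difference was 0.37 (SE 0.20), or 1.29-fold. With Acot3 it was one of 2 thioesterase probe sets that lay higher in the probiotic group without overlap, as did 6.02% of all probe sets tested. Of the 11, 0 lay lower without overlap, against 6.7% of all. The dimmer probe set had 7.30, 6.17 and 7.24 in the probiotic samples and 6.80, 5.76 and 6.83 in the high-fat samples. There sample 2 was the lowest of each group, the groups overlapped, and the difference was 0.44 (SE 0.50). It was 0.81 with probiotic sample 2 left out and 0.10 with high-fat sample 2 left out.

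Acot12 encodes the cytosolic acetyl-CoA thioesterase first described from rat liver. The Acot12 probe set had signals of 12.49, 10.85 and 11.67 in the probiotic samples and 12.14, 11.78 and 11.78 in the high-fat samples. The high-fat samples lay close together and the probiotic samples on both sides of them. Acot12 was the only gene of the 8 with a lower mean in the probiotic group by its brightest probe set, at 11.67 ± 0.82 against 11.90 ± 0.21 for high-fat (SD, n = 3). The difference of -0.23 (SE 0.35) rested on probiotic sample 2, in which Acot1 was highest, and was 0.18 without it.

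The cytosolic enzymes had a median difference of 0.37, that of Acot7, and a range of -0.23 to 1.26. Averaged over Acot1, Acot7 and Acot12 and set against the high-fat mean, the probiotic samples lay at 0.62, 0.69 and 0.10 and the high-fat samples at -0.56, 0.47 and 0.090. The groups overlapped, with probiotic sample 3 below high-fat sample 2.

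Acot2 encodes the mitochondrial matrix enzyme for long-chain acyl-CoA, and its 3 probe sets did not give 1 pattern. The brightest had signals of 12.33, 13.27 and 12.17 in the probiotic samples and 11.39, 12.31 and 12.11 in the high-fat samples. Probiotic sample 2 was highest and high-fat sample 1 lowest, as for Acot1, and the difference was 0.65 (SE 0.32). The dimmest of the 3 had 10.10, 11.13 and 10.44 in the probiotic samples and 10.24, 10.01 and 9.83 in the high-fat samples, a difference of 0.53 (SE 0.27). Without probiotic sample 2 the difference was 0.31 for the brightest and 0.24 for the dimmest probe set, and without high-fat sample 1 it was 0.38 for the brightest. The probe set of intermediate brightness had 11.68, 11.29 and 10.37 in the probiotic samples and 10.95, 11.82 and 11.11 in the high-fat samples. There the highest value was in high-fat sample 2 and the difference was -0.18 (SE 0.35).

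Acot13, also called Them2, encodes a small thioesterase that is found with mitochondria and in the cytosol in the mouse. The Acot13 probe set had signals of 9.93, 9.77 and 10.34 in the probiotic samples and 10.11, 9.89 and 9.70 in the high-fat samples. The samples of both groups were interleaved. Group means were 10.01 ± 0.29 for probiotic against 9.90 ± 0.21 for high-fat (SD, n = 3), and the difference was 0.12 (SE 0.23), which was -0.047 without probiotic sample 3.

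The pair of mitochondrial enzymes had a median difference of 0.38. Averaged over Acot2 and Acot13 and set against the high-fat mean, the probiotic samples lay at 0.21, 0.61 and 0.34 and the high-fat samples at -0.17, 0.18 and -0.016, with little space between the groups. The medians of the 3 compartments were 0.31 for the peroxisomal, 0.37 for the cytosolic and 0.38 for the mitochondrial enzymes, while genes within a compartment differed by more than 1 unit in the peroxisomal and cytosolic groups. With the mean of all probe sets of a gene in place of the brightest, the medians were 0.31 peroxisomal, 0.41 cytosolic and 0.23 mitochondrial. With the Actb gap, a measure of RNA quality that did not overlap between the groups, as a covariate they were 0.25 peroxisomal, 0.66 cytosolic and 0.23 mitochondrial. The 3 compartments hold only 2 or 3 genes each, and the differences between them were not tested.

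The spread between samples of the same group does not enter the choice of the family and was set against all probe sets tested. The pooled SD of Acot1 within groups was 1.37, which 99.2% of the 18625 probe sets did not exceed. Between the samples of its group, Acot1 spanned 4.82-fold in the probiotic group and 8.43-fold in the high-fat group. The shared probe set followed at 1.06 (percentile 96.5). The 3 Acot2 probe sets had 0.54, 0.58 and 0.40, Acot12 had 0.60 and the dimmer Acot7 probe set 0.62, against a median of 0.36 over all probe sets tested. Acot3 and Acot4 lay near the middle of all probe sets, with 0.38 and 0.40 (percentiles 53.0 and 55.1). Acot8, Acot13 and the brighter Acot7 probe set lay below it, with 0.31, 0.25 and 0.20. The widest spread was thus in Acot1 rather than in Acot3.

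**Figure D3:**
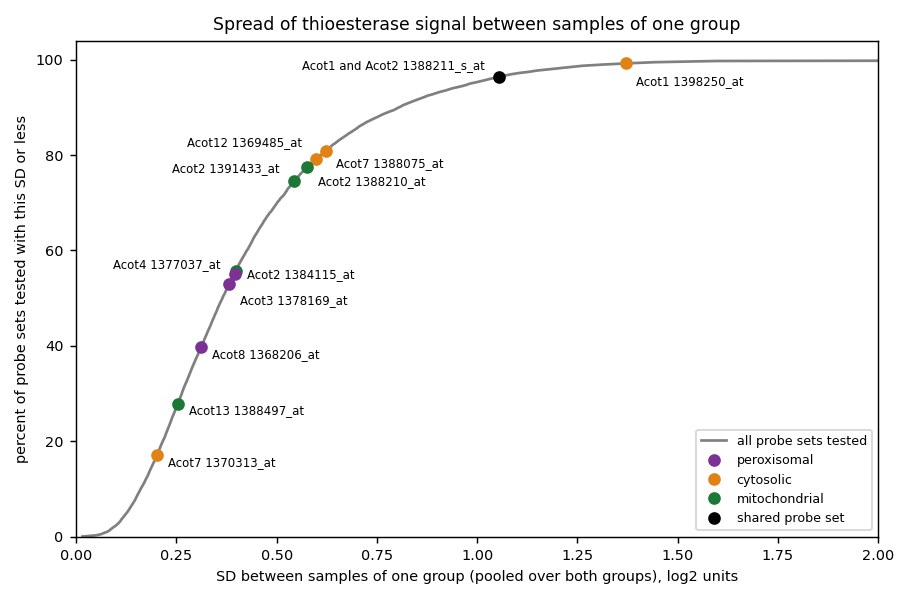
Pooled SD between samples of the same group in log2 units (x axis) and the percent of the 18625 probe sets tested with that SD or less (y axis), as a grey line for all probe sets and points for the thioesterase probe sets, coloured by compartment. Acot1 lies at 1.37, at the upper end of the line, and the brighter Acot7 probe set at 0.20, near its lower end.

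Acot1, the brightest Acot2 probe set, Acot4 and the brighter Acot7 probe set, 4 of 11, were highest in probiotic sample 2 and lowest in high-fat sample 1, against 3.95% of all probe sets tested. This combination of samples was picked out after the values of Acot1 had been seen, and Acot1 is 1 of the 4. It also sets a probiotic sample against a high-fat sample, the contrast in which the family was chosen. Nothing is read from the counts with these extremes. Genes of fatty acid oxidation included others with these extremes: 5 of 16 tested genes of mitochondrial beta-oxidation, 4 of 16 genes of PPARalpha and its targets, 3 of 14 of peroxisomal beta-oxidation and CoA turnover and 2 of 7 carnitine acyltransferases and carriers. They include Cyp4a1, a fatty acid omega-hydroxylase, Ehhadh, the peroxisomal bifunctional enzyme, Eci1, a mitochondrial enoyl-CoA isomerase, Hadha, a subunit of the mitochondrial trifunctional protein, Cpt1a, the liver carnitine palmitoyltransferase, and Vnn1, a pantetheinase. The lists share genes: Ehhadh is counted in both the PPARalpha and the peroxisomal list, and Cpt1a in both the PPARalpha and the carnitine list. For Cpt1a, probiotic sample 2, at 14.05, was barely above high-fat sample 3, at 14.04. Among the acyl-CoA synthetases the count with these extremes was 1 of 17, among the genes of CoA synthesis 0 of 9, and among thioesterases outside the 8 genes 0 of 8. Measured from its own mean over the 6 samples, Acot1 lay at 1.88 in probiotic sample 2 and at -2.31 in high-fat sample 1. Cyp4a1 lay at 0.72 and -0.83 in these samples, and Ehhadh at 1.21 and -0.64. Probiotic sample 2 also had the widest gap between 3′ and 5′ control signals of Actb, 3.01, against 1.59 to 2.39 in the other samples. Of all probe sets tested, 20.4% were highest and 22.3% lowest in it, against 23.8% and 26.1% in high-fat sample 2. The part of RNA quality in this pattern was not tested.

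**Figure D4:**
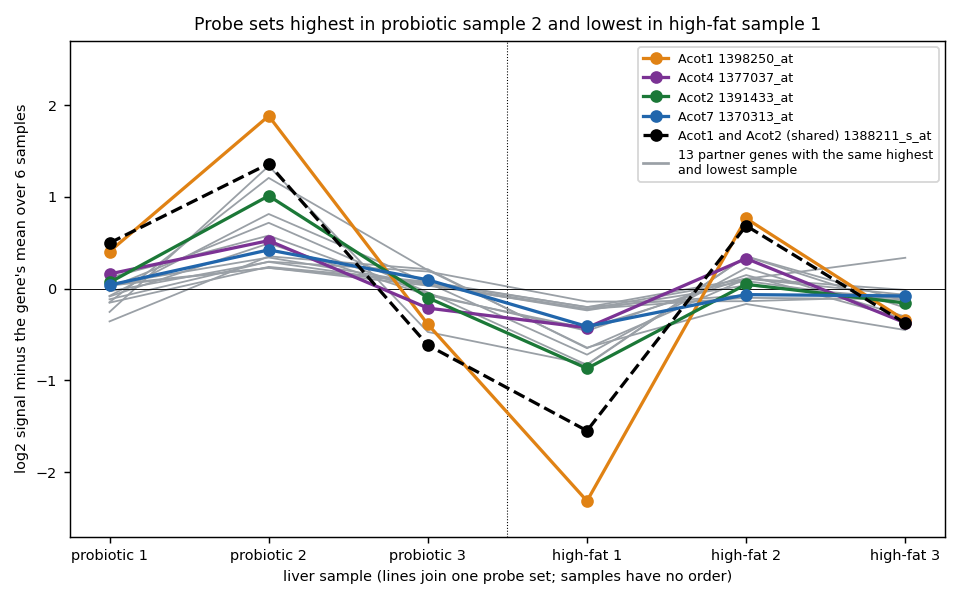
Log2 signal minus the mean of the probe set over the 6 samples (y axis) in 3 probiotic and 3 high-fat samples (x axis), for Acot1, Acot4, Acot2, Acot7, the probe set shared by Acot1 and Acot2 (dashed) and 13 genes of the related pathways (grey), all chosen because they were highest in probiotic sample 2 and lowest in high-fat sample 1. Acot1 spans from -2.31 to 1.88.

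Other genes of acyl-CoA metabolism were read from lists of enzymes and carriers that act with thioesterases. Of 85 such genes tested with limma, 0 passed at an adjusted p under 0.05 (smallest adjusted p = 0.726), and 11 were at an unadjusted p under 0.05, against 6.85% of all probe sets tested. Of the 85, 56 had a higher mean in the probiotic group (65.9%, against 50.5% of all probe sets tested). Median differences stood at 0.15 for 17 acyl-CoA synthetases, 0.19 for 7 carnitine acyltransferases and carnitine carriers (5 acyltransferases, the transporter Slc22a5 and the translocase Slc25a20), 0.17 for 16 genes of mitochondrial beta-oxidation, 0.074 for 14 of peroxisomal beta-oxidation and CoA turnover, 0.083 for 16 of PPARalpha and its targets and -0.0012 for 9 of CoA synthesis. The median of the 8 thioesterases was 0.34. Most list medians depended on single samples. The carnitine list had 0.035 with probiotic sample 2 left out and 0.40 with probiotic sample 3 left out. The peroxisomal list had 0.046 on omission of probiotic sample 2 and 0.19 on omission of high-fat sample 2. The PPARalpha list had -0.0024 once high-fat sample 1 was omitted and 0.22 once high-fat sample 2 was. The list of CoA synthesis had -0.083 when high-fat sample 3 was dropped and 0.21 when high-fat sample 1 was. The synthetases spanned 0.095 to 0.22 over the omissions of single samples. The mitochondrial list moved least, between 0.13 and 0.20.

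Among enzymes that make acyl-CoA, 14 of 17 had a higher mean in the probiotic group. Acsm1, a mitochondrial medium-chain synthetase, had a difference of 0.31 (SE 0.14), Acsm5 0.48 (SE 0.30) and Acsf2 -0.34 (SE 0.22). In the carnitine list, 6 of 7 had a higher mean. Crot, which moves medium-chain acyl groups out of peroxisomes, had 0.53 (SE 0.14), Cpt2 of the inner mitochondrial membrane -0.39 (SE 0.21) and the acetyltransferase Crat 0.28 (SE 0.27). Crot, like Acot3, acts on acyl-CoA made in peroxisomes, and its signals were 14.65, 14.80 and 14.71 in the probiotic samples and 14.39, 14.19 and 13.99 in the high-fat samples, with no overlap.

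In the peroxisomal list, 9 of 14 genes had a higher mean. Phyh, the phytanoyl-CoA hydroxylase, had a difference of 0.43 (SE 0.13), Ehhadh 0.84 (SE 0.30) and the acyl-CoA oxidase Acox2 0.56 (SE 0.21). In the mitochondrial list, 13 of 16 had a higher mean, with 0.29 (SE 0.13) for the thiolase Acaa2, 0.31 (SE 0.16) for the short-chain dehydrogenase Acads and 0.53 (SE 0.28) for Eci1. Of PPARalpha and its targets, 9 of 16 had a higher mean. The receptor's partner Rxra had -0.94 (SE 0.27), with 8.64, 7.80 and 7.97 in the probiotic samples and 9.06, 9.17 and 8.98 in the high-fat samples. Pex11a, which drives the division of peroxisomes, had 0.69 (SE 0.23).

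In the list of CoA synthesis, 4 of 9 genes had a higher mean. Dcakd had 0.55 (SE 0.25), the pantothenate kinase Pank1 0.77 (SE 0.37) and the mitochondrial CoA carrier Slc25a42 -0.28 (SE 0.20). Thioesterases outside the 8, read from a further list of acyl-CoA and acyl-protein thioesterases, had a higher mean for 3 of 8 tested. Their median difference was -0.072, which was 0.043 when both sample 2 arrays were left out, and 0.16 with a covariate of RNA quality (the Actb gap). Baat, which conjugates bile acids from their CoA esters, had 0.29 (SE 0.18), the fatty acid synthase Fasn -0.68 (SE 0.42) and the lysosomal thioesterase Ppt2 -0.88 (SE 0.60). For Ppt2 probiotic sample 2 lay at 5.77, below the other 5 samples at 7.89 to 8.52.

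**Figure D5:**
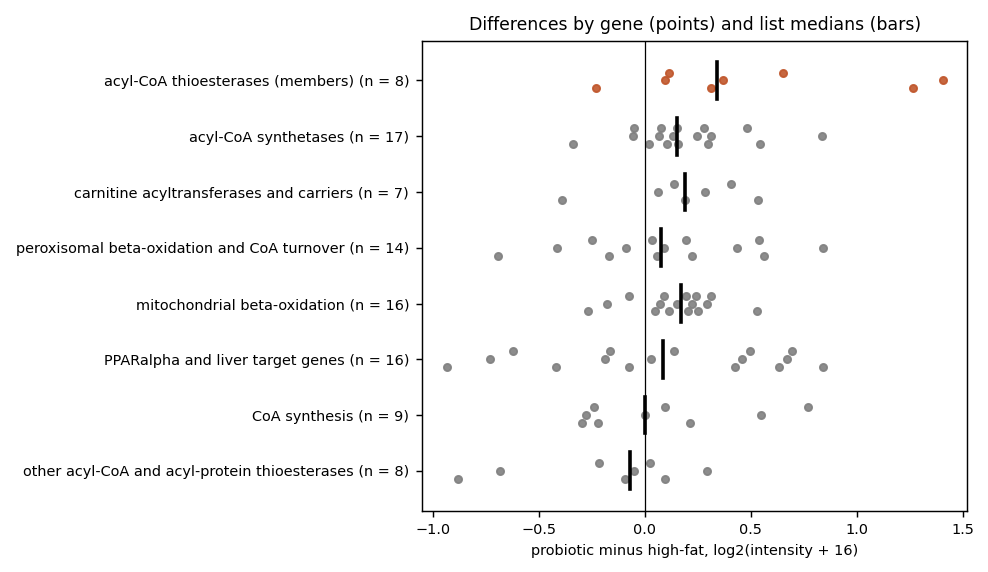
Differences, probiotic minus high-fat, on the log2(intensity + 16) scale for the 8 thioesterase genes (top, orange) and 7 lists of related genes (grey), each gene by its brightest probe set, with list medians as bars. The thioesterase median is 0.34 and the list medians run from -0.072 to 0.19.

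The genes whose profile over the 6 samples was nearest to Acot3 were sought among 10572 genes by the mean absolute difference between deviations from each gene's own mean. They were Rhbdl3 at a distance of 0.23, Rhou at 0.24, Shank3 at 0.24, LOC102546572 at 0.24 and Mex3d at 0.25. Rhou had signals of 11.69, 12.30 and 11.54 in the probiotic samples and 11.35, 10.44 and 10.95 in the high-fat samples. No other thioesterase was near Acot3 by this measure. The nearest, Acot7, stood at rank 825 with 0.52 and Acot2 at rank 1015 with 0.54. Acot4 stood at rank 1217 with 0.55, and Acot1 at rank 9834 with 1.01. The measure is not scaled by spread, so a smaller span than that of Acot3 adds distance, as does the wide spread of Acot1. These distances and ranks therefore do not give the likeness of shape alone. Likeness over 6 samples is a description of these samples only.

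Cell makeup and RNA quality of the 6 samples stand beside all of these values. All 8 hepatocyte markers were above the filter, and their summed signal was 18.5 to 18.7 on the log2 scale in the probiotic and 18.4 to 19.2 in the high-fat samples. Kupffer cell markers had a lower mean in the probiotic group for 10 of the 10 genes on the array (median difference -0.40), with a summed log2 signal of 13.70 to 14.02 in the probiotic samples and a highest value of 14.37 in the high-fat samples, and the groups overlapped slightly. Blood cell markers had a higher mean for 3 of the 3 on the array (median difference 0.94). Their summed log2 signal was 14.9 to 15.7 in the probiotic and 14.3 to 14.7 in the high-fat samples, without overlap. Median differences were 0.12 for 3 cholangiocyte, 0.041 for 5 endothelial and -0.067 for 7 stellate cell markers above the filter. Of 6 adipocyte markers, Adipoq, Lep and Ucp1 were below the filter and 3 were above it. Of those above it, 1 had a higher and 2 a lower mean in the probiotic group (median difference -0.21). The part of cell makeup in the thioesterase values was not tested. In whole liver, fewer cells of a type and less RNA per cell cannot be told apart. The Actb gap between 3′ and 5′ control signals, which widens as RNA breaks down, was 2.11, 3.01 and 2.39 in the probiotic samples and 1.96, 1.59 and 1.96 in the high-fat samples (exact two-sided permutation p = 0.1, the smallest that 3 against 3 allow). The same gap for Gapdh was 0.71, 1.49 and 1.23 in the probiotic samples and 0.52, 0.53 and 0.79 in the high-fat samples, where the groups overlapped (exact two-sided permutation p = 0.2). With the Actb gap in the fit, the difference of Acot3 was 1.11, that of Acot1 0.85, that of the brightest Acot2 probe set 0.19 and that of Acot12 0.66. The Actb gap was wider in every probiotic sample than in every high-fat sample. RNA quality and treatment thus cannot be told apart in this fit, and its values are not differences freed of RNA quality.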

How the data were processed

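Liver RNA (8 ug per array) was made into biotin-labelled cRNA for Affymetrix arrays of 1 colour, per the labels' protocols. The values the authors deposited are 1 linear intensity per probe set and array. The software that made them is not given in the sources used here. Trimmed of 2% of probe sets at either end, the mean was 500 or 501 on every array, and the median intensity was 90.4 to 147.2. Of 31099 probe sets, 57 controls were left out. Values were taken as log2(intensity + 16) and quantile normalized, and probe sets with a mean at or above the 40th percentile were tested, which left 18625. Folds on this scale understate changes of dim probe sets. Symbols came from the platform annotation, matched by gene identifier to RefSeq (GRCr8) for 20764 of 20832.

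Groups were taken from the titles and compared with limma 3.58.1 in R 4.3.3 (lmFit, eBayes with an intensity trend, two-sided, Benjamini-Hochberg over all probe sets tested, threshold 0.05). With 3 arrays per group, their number limits the precision. The members, the gene lists and the tests were chosen with earlier results of these data known. Named outside the family were the 3 genes of smallest p from each list and the 5 nearest to Acot3. Genes of a list are given by their brightest probe set. Enzymes with the same extreme samples were named after their values were seen. Alternatives covered normalization, pseudocount, filter, variance model, weighting of arrays, a replicate block, the Actb 3′ to 5′ gap as covariate, which probe set stands for a gene, and samples left out.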

Additional observations from a re-analysis of the deposited data

How the results depend on the processing

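Under 17 other settings limma called 0 of the thioesterase probe sets and 0 of the related genes (adjusted p of the thioesterases 0.307 to 1). Of the 11 probe sets, 6 kept their direction under every setting in which they were tested, among them Acot3 (1.11 to 1.65) and Acot1 (0.42 to 1.95). Calls over all probe sets, 4, numbered 3 to 12 with single samples left out: 12 with probiotic sample 1 left out and 9 with high-fat sample 1 left out. The sample numbers are not stated to pair the samples, so the replicate block was used only as an alternative. Deviations of same-numbered samples correlated at 0.14, 0.027 and 0.077. As a hint from the data, not the design, 5 of 6 samples correlated best with their own number. With the replicate block, 4 probe sets and 0 thioesterases were called. There 3 of 11 thioesterase probe sets were at an unadjusted p under 0.05, against 1527 of all 18625. Acot3, known when the family was chosen, is among the 3, and nothing is read from this count. Compartment medians with single samples left out spanned 0.13 to 0.56 (peroxisomal), 0.25 to 0.44 (cytosolic) and 0.27 to 0.47 (mitochondrial).

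Under the Actb covariate the cytosolic median was 0.66, and direction turned for Acot12 (0.66), the dimmest Acot2 probe set (-0.10), the intermediate Acot2 probe set (0.13) and Acot8 (-0.12). The Actb gap did not overlap between the groups, so RNA quality and treatment cannot be told apart under this covariate. Direction also turned for Acot8 with array weights (-0.034), and without both sample 2 arrays for Acot8 (-0.029) and Acot12 (0.13). With single samples left out, ranges that crossed 0 were -0.076 to 0.32 for Acot8 (lowest without high-fat sample 1), -0.64 to 0.18 for Acot12 (highest without probiotic sample 2), -0.047 to 0.23 for Acot13 (lowest without probiotic sample 3) and -0.46 to 0.19 for the intermediate Acot2 probe set (0.19 without probiotic sample 3, 0.085 without high-fat sample 2). The cause was not tested. The dimmer Acot7 probe set was below the filter at the 60th percentile. Median centring and no normalization put the median of all probe sets at 0.028 and -0.020.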

Other observations

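The measure of likeness was also applied to Acot1, after its wide spread had been seen. The nearest of 10572 genes were Nrgn at 0.36, Mllt1 at 0.42, LOC100912991 at 0.48, Mdn1 at 0.49 and Nab2 at 0.51. No member of the family or of the related lists was among these 5. Nothing is read from this absence, since a smaller span adds distance even where the order of samples is the same. The probe set shared by Acot1 and Acot2 was not among those compared. Nrgn, the neuronal protein neurogranin, had signals of 6.74, 7.77 and 5.72 in the probiotic samples and 5.05, 6.88 and 6.14 in the high-fat samples, in the same order of samples as Acot1, and its lowest value lay below the mean of 6.30 that the filter set.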
